A study of Mus musculus with 8 samples.

Results

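T cells, B cells and natural killer (NK) cells are the lymphocytes of blood, lymphoid organs and tissues, and liver holds a resident population of them that is rich in NK and cytotoxic T cells. T cells recognize antigen through a receptor that signals through the CD3 and zeta chains and the kinases Lck and Zap70, B cells do so through a surface immunoglobulin coupled to the CD79 chains, and NK cells kill through granules of perforin and granzymes under the control of paired receptors. The genes described here are 34 transcripts that mark these cells, 18 of T cells, 6 of B cells and 10 of NK and cytotoxic cells. They were taken by name, older synonyms included, from 27961 gene names on whole-genome arrays of mouse liver, and each of the 34 had a probe. A gene with more than 1 probe was read at its brightest, by the mean of the 8 arrays.

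Liver RNA came from wild-type C57BL/6 male mice (C57BL/6J in the study's methods) aged 14 to 17 weeks, 4 administered the standard (STD) diet and 4 administered an atherogenic (ATH) diet for 4 weeks, with 1 mouse and 1 array each. The ATH diet is rich in fat and cholesterol and contains cholic acid, a bile acid. It is a model of cholesterol-driven liver inflammation with no genetic lesion, and whole liver was read, so a change in lymphocyte transcripts can come from fewer or more cells or from less or more RNA per cell, and these cannot be told apart. The question behind the comparison was how diet-induced inflammation changes liver gene expression.

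Levels are given as log2 scaled signal, which is the log2 of the processed spot signal minus the 75th percentile of its array, so that 0 is the 75th percentile and each unit is a doubling. Between 72.3% and 77.8% of spots were well above background on an array. The 75th percentile itself lay between 8.81 and 8.91 (log2) on the STD arrays and between 9.11 and 9.46 on the ATH arrays, and with this scaling the median log2 fold change of all gene names was -0.19. Each diet had a slide and a scan of its own, so diet and slide cannot be told apart. Albumin (Alb), the defining hepatocyte product, was well above background on all 8 arrays, at 10.30 to 10.35 on the STD arrays and 9.63 to 10.14 on the ATH arrays, where its spot was saturated on replicates 1 and 2, so that those levels are lower bounds. A gene was called at an adjusted p of 0.05 by limma over all gene names, which gave 377 higher and 641 lower on the ATH diet (401 and 384 with array medians as the scale, 433 and 389 with quantile normalization, 1031 and 223 with spike-in probes and 3945 and 265 with no scaling).

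No lymphocyte gene passed this test. By limma, 0 of the 34 were called higher, where 1.35% of all gene names were, and 0 were called lower, where 2.29% were. At an unadjusted p of 0.05, 12 of the 34 were higher on the ATH diet, against 7.6% of all gene names, and 3 were lower, against 17.8%. The test of the study's methods, which lets the variances differ and pools nothing across genes, called 0 of them after adjustment, against 0.0358% of all gene names (1 higher and 9 lower), and 6 at an unadjusted p of 0.05, against 20.6%. It was run here on all gene names at 5%. The study applied it to probes that passed a detection filter, at a false discovery rate of 1%, so these counts are not those of the study. The largest differences among the 34 were those of Cd8a (6.08-fold), Klrd1 (4.55-fold), Gzma (4.28-fold) and Nkg7 (3.61-fold), all higher on average. In these genes the mice on the ATH diet differed from each other by as much. Others were higher on average too, such as Cd3d and Lck (each 3.15-fold) and Icos (2.40-fold), and some changed little. On average 9 of the 34 were lower, 6 of them T genes, where 19413 of all 27961 gene names were.

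**Figure D1:**
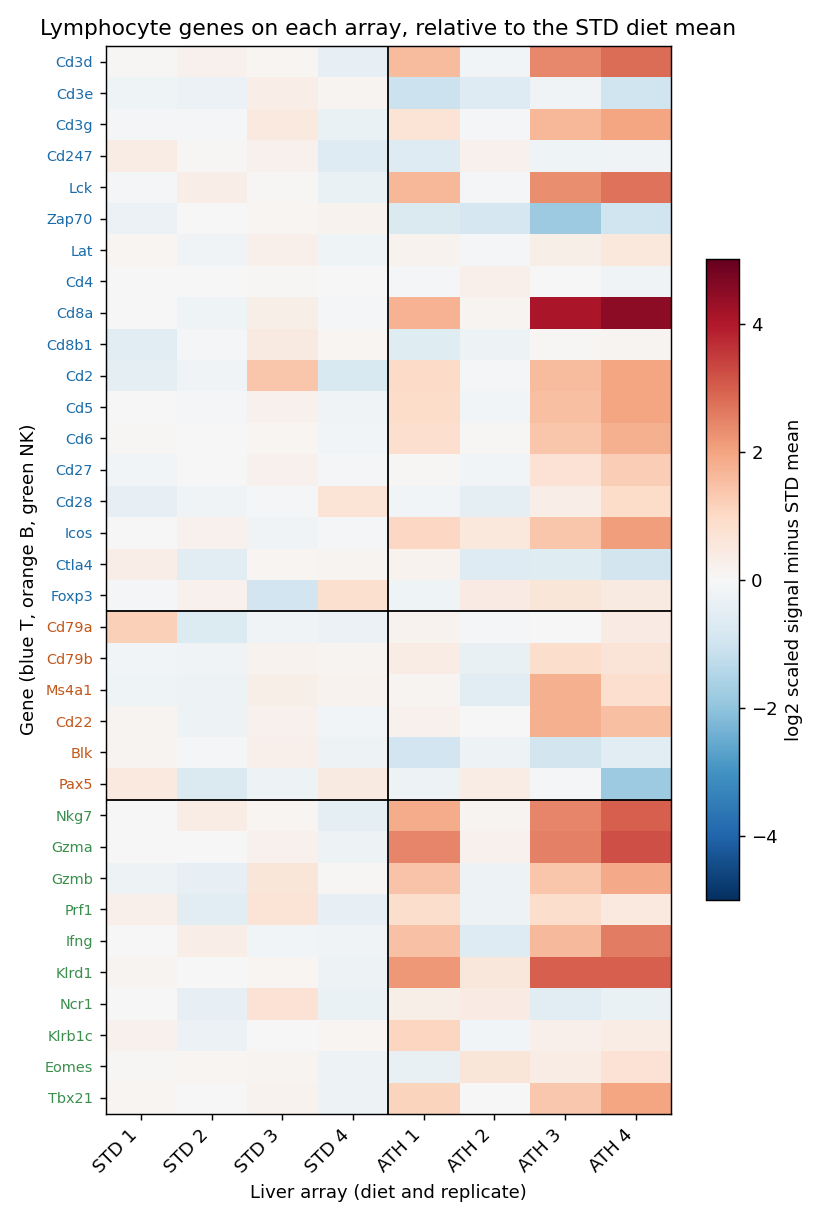
Each row is a lymphocyte gene and each column a liver array, and the color gives the log2 scaled signal minus the mean of the 4 STD arrays (log2 units). Most T and NK genes are highest on ATH replicates 3 and 4, intermediate on ATH replicate 1 and at the STD level on ATH replicate 2, while Zap70, Cd3e and Blk are lower on the ATH diet.

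The array of ATH replicate 2 stood apart from the other ATH arrays in these genes. It gave the lowest ATH value for 23 of the 34 (67.6%), whereas it was lowest for 16.5% of all gene names. Its value lay within the range of the 4 STD arrays for 23 of the 34, and for 14162 of all 27961 gene names. ATH replicate 2 was above every STD array for 4 of the 34, while ATH replicate 1 was for 16. ATH replicates 3 and 4 were for 22 each. Over all gene names the shares were 22.1% for ATH replicate 2, 19.7% for replicate 1, 16.9% for replicate 3 and 16.0% for replicate 4. When each array was left out in turn, leaving out ATH replicate 2 gave 13 lymphocyte genes called higher, against 4.19% of all gene names, and 2 called lower, against 4.32%, and leaving out any of the other 7 arrays gave 0 in both directions. The array left out is the one in which these transcripts were lowest, so the 13 calls hold for the remaining 3 mice of the ATH diet and not for the group as sampled.

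Probes that name the same gene did not always read alike, and the sequences of 3 such sets are shown because the reading of Cd8b1, Cd247 and Cd6 depends on them. For each 60-base probe the first 30 bases are given as the array files hold them, in lower case throughout, with the position the files give on the mm7 mouse assembly. The exon or intron at these positions was not looked up, since no annotation of that assembly was used here.

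Cd8b1, A_52_P511269, chromosome 5, 114364254 to 114364313 (brightest): gccatgatccagggaatgaaaagaaatttg
Cd8b1, A_51_P150433, chromosome 6, 71355005 to 71355063: ggaccctggagaagactgcaaatcctcaca
Cd247, A_52_P173555, chromosome 1, 165827148 to 165828166 (brightest): gaccccaaccagctctacaatgagctcaat
Cd247, A_51_P431364, chromosome 1, 165837877 to 165837936: aagaaatctttggttttggctggaaatgga
Cd247, A_52_P75298, chromosome 1, 165832436 to 165832495: aacggtaagatgtcttaccttcatgaagac
Cd6, A_51_P313320, chromosome 19, 10469526 to 10469585 (brightest): ggttattgcagccaagaccttaaacaggtc
Cd6, A_52_P294977, chromosome 19, 10473057 to 10474313: agggatcaataactaccatcctgtccctat

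The brightest Cd8b1 probe is placed on chromosome 5, while its other probe is placed on chromosome 6, where Cd8a also lies. The spans of 1019 bases for the brightest Cd247 probe and of 1257 bases for the second Cd6 probe are longer than the 60 bases of a probe, so these positions bracket unmatched sequence. Altogether the 34 genes had 50 probes, 14 genes had more than 1, and in 8 of those (Cd247, Cd4, Cd8b1, Cd6, Cd28, Cd22, Pax5 and Klrb1c) the probes differed in the sign of the diet difference. All 40 probes whose accession was in the RefSeq gene table named the same gene there. The chromosome 5 probe of Cd8b1 was not among them, so its gene was not checked in this way.

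Among the chains of the T cell receptor complex, Cd3d and Cd3g, which encode the delta and gamma chains of CD3, were higher on the ATH diet and Cd3e was lower. Cd3d read -2.55, -2.40, -2.53 and -3.02 on the 4 STD arrays and -1.05, -2.77, -0.23 and 0.17 on the ATH arrays. The values of ATH replicates 1, 3 and 4 lay above every STD value and that of ATH replicate 2 lay among them. The difference was 1.66 on the log2 scale (SE 0.57, adjusted p = 0.123), and 2.26 (SE 0.30, adjusted p = 0.00981) without ATH replicate 2. Cd3g followed the same order of arrays, from -3.29 to -2.47 on the STD diet and from -3.06 to -0.99 on the ATH diet (log2 fold change 1.06, SE 0.44, adjusted p = 0.177, and 1.44, SE 0.33, adjusted p = 0.0437 without ATH replicate 2).

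Cd3e, the epsilon chain encoded beside Cd3d and Cd3g on chromosome 9, moved the other way. Its values were -1.71, -1.79, -1.16 and -1.38 on the STD arrays and -2.57, -2.17, -1.67 and -2.49 on the ATH arrays, so that 3 of the ATH arrays lay below every STD array and ATH replicate 3 lay among them. The log2 fold change was -0.71 (SE 0.24, adjusted p = 0.111) with all arrays, and -0.73 (adjusted p = 0.126) without ATH replicate 2. The second Cd3e probe, well above background on 2 STD arrays and 1 ATH array, also read lower on the ATH diet (-0.88, SE 0.74).

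Cd247 encodes the zeta chain, the main signalling part of the complex. Its brightest probe gave -3.41, -3.75, -3.59 and -4.46 on the STD arrays and -4.46, -3.61, -4.01 and -3.98 on the ATH arrays, overlapping throughout, with a log2 fold change of -0.21 (SE 0.27, adjusted p = 0.632). Another Cd247 probe, A_52_P75298, was not well above background on any STD array (-5.87, -5.65, -5.48 and -5.43) and gave -3.80, -6.43, -2.72 and -2.28 on the ATH arrays, 3 of them well above background. Set against the lowest signal that counts as well above background, that is about 3.15-fold higher on the ATH diet (adjusted p = 0.213 among all probes). This bound is approximate, because its ATH mean takes in ATH replicate 2, which was not well above background. The remaining probe, well above background on 2 STD arrays and no ATH array, was about 1.23-fold lower (adjusted p = 0.524). That bound is approximate too, since its STD mean takes in arrays not well above background.

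**Figure D2:**
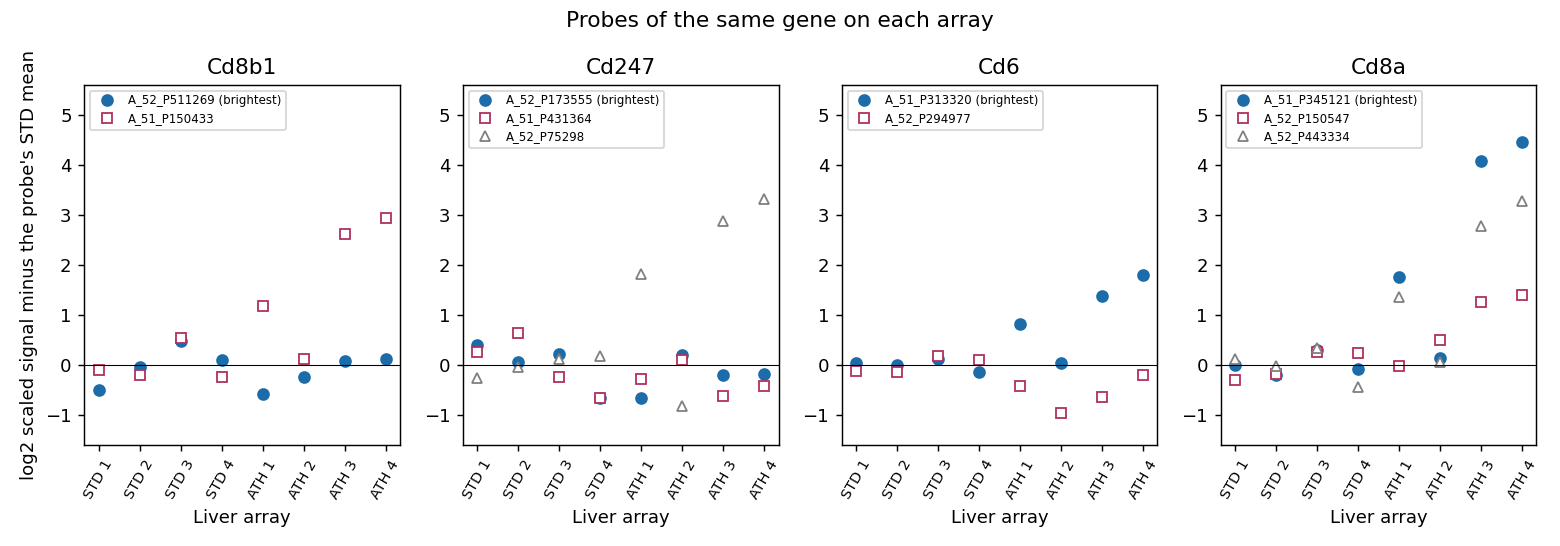
The log2 scaled signal of each probe minus its own STD mean (vertical axis, log2 units) is plotted for the 8 arrays (horizontal axis) for Cd8b1, Cd247, Cd6 and Cd8a, with filled points for the brightest probe and open points for the others. For Cd8b1 and Cd247 a dimmer probe reads higher on ATH replicates 1, 3 and 4 while the brightest does not, for Cd6 it is the brightest that reads higher, and the 3 Cd8a probes are all higher on ATH replicates 3 and 4.

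The kinases that start T cell signalling also parted. Lck, the kinase that binds the CD4 and CD8 tails, read -2.85, -2.47, -2.73 and -3.13 on the STD arrays and -1.15, -2.84, -0.49 and -0.07 on the ATH arrays. All ATH arrays but replicate 2 were above the STD range (log2 fold change 1.66, SE 0.54, adjusted p = 0.108, and 2.22, SE 0.28, adjusted p = 0.00884 without that array). Lat, the adaptor that gathers the signalling complex, changed little, from between -1.56 and -1.11 on the STD arrays to between -1.44 and -0.83 on the ATH arrays (log2 fold change 0.22, SE 0.17).

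Zap70, the kinase recruited by the phosphorylated zeta chain, was lower in every mouse on the ATH diet. It read 1.48, 1.79, 1.88 and 1.93 on the STD arrays and 1.05, 0.95, -0.04 and 0.77 on the ATH arrays, with no overlap and its lowest value on ATH replicate 3, where Lck was among the highest. Its mean was 1.77 ± 0.20 on the STD diet and 0.68 ± 0.49 on the ATH diet (SD, n = 4 each), a log2 fold change of -1.09 (SE 0.25) with an adjusted p of 0.0521 by limma (-1.17, adjusted p = 0.0425 without ATH replicate 2). Zap70 was the only lymphocyte gene whose ATH values all lay below its STD values, which held for 12.5% of all gene names. With probes limited to those detected on at least 3 arrays of either diet, which 30 of the 34 genes passed (Cd28, Foxp3, Blk and Pax5 did not), Zap70 was the 1 gene called lower (adjusted p = 0.032), against 5.87% of the gene names in that test.

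The coreceptors showed the widest contrast. Cd8a, the alpha chain of the CD8 coreceptor of cytotoxic T cells, read -4.82, -5.01, -4.52 and -4.91 on the STD arrays and -3.07, -4.69, -0.74 and -0.36 on the ATH arrays. The STD values stayed within 0.49 of each other while the ATH values ran over 4.33. The log2 fold change of 2.60 was the largest of the 34, but its SE was 0.87 (adjusted p = 0.116), and without ATH replicate 2 it was 3.43 (SE 0.60, adjusted p = 0.02). The other Cd8a probes gave 0.79 (SE 0.32) and 1.87 (SE 0.64).

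Cd8b1, the beta chain, differed by -0.16 (SE 0.24) at the brightest probe, the one placed on chromosome 5. At the chromosome 6 probe it read -2.03, -2.13, -1.38 and -2.16 on the STD arrays and -0.75, -1.81, 0.69 and 1.01 on the ATH arrays. There its order of arrays was that of Cd8a, with a log2 fold change of 1.71 (SE 0.59, adjusted p = 0.13 among all probes). Cd4, the coreceptor of helper T cells, gave -3.44, -3.43, -3.38 and -3.44 on the STD arrays and -3.53, -3.15, -3.42 and -3.60 on the ATH arrays. These overlapped, with means of -3.42 and -3.43 and a standard error of 0.13 for the difference. Its sign turned with the scaling, from -0.004 here to 0.07 with array medians, 0.09 with quantiles, 0.31 with spike-in probes and 0.44 with no scaling, where it was called at an adjusted p of 0.0363.

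All 6 genes of T cell surface and costimulatory receptors were higher on average on the ATH diet, and their median difference was 1.03 (log2). Icos, an inducible costimulatory receptor of activated T cells, was above the STD range in every ATH mouse. It read -2.45, -2.25, -2.63 and -2.55 on the STD arrays and -1.45, -1.94, -1.07 and -0.37 on the ATH arrays (log2 fold change 1.26, SE 0.31, adjusted p = 0.0591, and 1.51, adjusted p = 0.0182 without ATH replicate 2), and its second probe gave 0.89 (SE 0.36). Icos and Klrd1 were the 2 lymphocyte genes with all ATH values above all STD values, a pattern held by 5.27% of all gene names.

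Cd5 and Cd6, neighbouring genes on chromosome 19 for related receptors that dampen T cell signalling, had the same order of arrays. Cd6 read -1.26, -1.31, -1.19 and -1.44 on the STD arrays and -0.47, -1.26, 0.07 and 0.50 on the ATH arrays (log2 fold change 1.01, SE 0.34, adjusted p = 0.117, and 1.33, adjusted p = 0.0186 without ATH replicate 2), although its second probe read lower on every ATH array than on any STD array (log2 fold change -0.56, SE 0.18, adjusted p = 0.12 among all probes). For Cd5 the log2 fold change was 1.06 (SE 0.41, adjusted p = 0.154, and 1.46, adjusted p = 0.0199 without that array). Cd2, an adhesion receptor, differed by 1.12 (SE 0.56), with an STD range from -5.58 to -3.45 that took in ATH replicates 1 and 2. Cd27, listed under its older name Tnfrsf7, differed by 0.48 (SE 0.30), and Cd28, the main costimulatory receptor, which was well above background on 1 STD array and 2 ATH arrays, by 0.15 (SE 0.34).

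The genes of regulatory T cells gave no difference past the test. Ctla4, an inhibitory receptor encoded between Cd28 and Icos, read -3.89, -4.80, -4.13 and -4.12 on the STD arrays and -4.07, -4.88, -4.82 and -5.15 on the ATH arrays (log2 fold change -0.49, SE 0.28, adjusted p = 0.291). ATH replicates 2, 3 and 4 were below the STD range and ATH replicate 1 was within it. Foxp3, the transcription factor of regulatory T cells, was not well above background on any of the 8 arrays, so no fold is given.

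B cell genes gave smaller differences in both directions. Ms4a1, which encodes the CD20 surface protein, read -2.61, -2.63, -2.11 and -2.22 on the STD arrays and -2.27, -2.97, -0.62 and -1.56 on the ATH arrays. Only ATH replicates 3 and 4 were above the STD range and ATH replicate 2 was below it (log2 fold change 0.54, SE 0.45, adjusted p = 0.461), and the second Ms4a1 probe gave 0.62 (SE 0.42). Cd22, an inhibitory coreceptor of B cells, read -2.84, -3.22, -2.75 and -3.10 on the STD arrays and -2.78, -2.99, -1.18 and -1.46 on the ATH arrays (log2 fold change 0.87, SE 0.41, adjusted p = 0.225). The second Cd22 probe, well above background on 2 STD arrays and 1 ATH array, read the other way (-0.61, SE 0.26, adjusted p = 0.199 among all probes), with ATH replicates 1, 2 and 4 below every STD array.

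The receptor chains Cd79a and Cd79b differed by 0.13 (SE 0.38) and 0.38 (SE 0.26) on the log2 scale. Cd79b was above the STD range on ATH replicates 1, 3 and 4, at -0.23, 0.26 and 0.05, and below it on ATH replicate 2, at -0.99. Ms4a1, Cd22 and Cd79b were each highest on ATH replicate 3, whereas 12 of the 18 T cell genes and 6 of the 10 NK genes were highest on ATH replicate 4.

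Blk and Pax5 were close to background. Blk, a B cell kinase of the Src family, read -5.15, -5.41, -5.06 and -5.57 on the STD arrays and -6.24, -5.56, -6.21 and -5.85 on the ATH arrays, where it was not well above background on any array (2 of 4 on the STD diet). Its bound was a level about 1.32-fold lower on the ATH diet (adjusted p = 0.088, and 0.0402 without ATH replicate 2). Pax5, the factor that fixes B cell identity, was well above background on 1 STD array and no ATH array, which gives a bound of about 1.01-fold lower (adjusted p = 0.576). The bounds of Blk and Pax5 are approximate, because their STD means take in arrays not well above background.

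The NK and cytotoxic genes had the highest median difference, with 9 of 10 higher on the ATH diet. Klrd1, which encodes CD94, the partner chain of the NKG2 receptors, was above the STD range in every ATH mouse. It read -3.17, -3.35, -3.22 and -3.58 on the STD arrays and -1.15, -2.75, -0.33 and -0.34 on the ATH arrays, the smallest rise being that of ATH replicate 2. The log2 fold change was 2.19 (SE 0.50) and its adjusted p of 0.0521 by limma equalled that of Zap70, the smallest among the 34, and without ATH replicate 2 they were 2.72 (SE 0.24) and 0.00505.

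Gzma, which encodes granzyme A, a protease of cytotoxic granules, read -4.60, -4.60, -4.38 and -4.85 on the STD arrays and -2.16, -4.41, -2.08 and -1.39 on the ATH arrays (log2 fold change 2.10, SE 0.57, adjusted p = 0.0735, and 2.73, adjusted p = 0.00504 without ATH replicate 2). ATH replicate 2 lay within the STD range and the other ATH arrays lay more than 2 units above it. Nkg7, a granule membrane protein of NK and cytotoxic T cells, had the same order, with -1.83, -1.50, -1.76 and -2.38 on the STD arrays and -0.02, -1.75, 0.56 and 1.13 on the ATH arrays (log2 fold change 1.85, SE 0.56, adjusted p = 0.0926, and 2.43, adjusted p = 0.0089 without ATH replicate 2), and its second probe gave 1.99 (SE 0.59). Among probes detected on at least 3 arrays of either diet, Klrd1 (adjusted p = 0.0322), Icos (0.0375) and Gzma (0.0484) were the 3 lymphocyte genes called higher, against 3.93% of the gene names in that test.

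Ifng encodes interferon gamma, the main macrophage-activating cytokine of these cells. It read -3.06, -2.68, -3.18 and -3.19 on the STD arrays and -1.58, -3.67, -1.42 and -0.49 on the ATH arrays. ATH replicate 2 was below every STD array and the other ATH arrays were above them (log2 fold change 1.24, SE 0.59, adjusted p = 0.228, and 1.87, SE 0.29, adjusted p = 0.0136 without that array). The second Ifng probe, well above background on 2 STD arrays and 3 ATH arrays, gave 2.32 (SE 0.85).

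Tbx21, which encodes the factor T-bet that drives Ifng, differed by 1.10 (SE 0.38, adjusted p = 0.12, and 1.48, adjusted p = 0.014 without ATH replicate 2). Its relative Eomes differed by 0.33 (SE 0.25), with ATH replicate 1 lowest of all 8 arrays and the other ATH arrays above the STD range. Gzmb (granzyme B) differed by 1.12 (SE 0.45, adjusted p = 0.171, and 1.57, adjusted p = 0.0199 without that array) and Prf1, the pore-forming perforin, by 0.50 (SE 0.35), with an STD range from -3.97 to -2.77 that took in ATH replicates 2 and 4.

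The other NK receptors gave smaller differences. Ncr1, which encodes NKp46, read -3.60, -3.96, -2.83 and -3.89 on the STD arrays and -3.29, -3.18, -4.12 and -3.90 on the ATH arrays (log2 fold change -0.05, SE 0.31, turning to 0.02 with array medians, 0.06 with quantiles, 0.26 with spike-in probes and 0.40 with no scaling). Its lowest ATH values were those of replicates 3 and 4, where Klrd1 was highest. Klrb1c, which encodes the NK1.1 receptor, differed by 0.39 (SE 0.26) with its highest value, -3.09, on ATH replicate 1, and its second probe by -0.36 (SE 0.26).

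**Figure D3:**
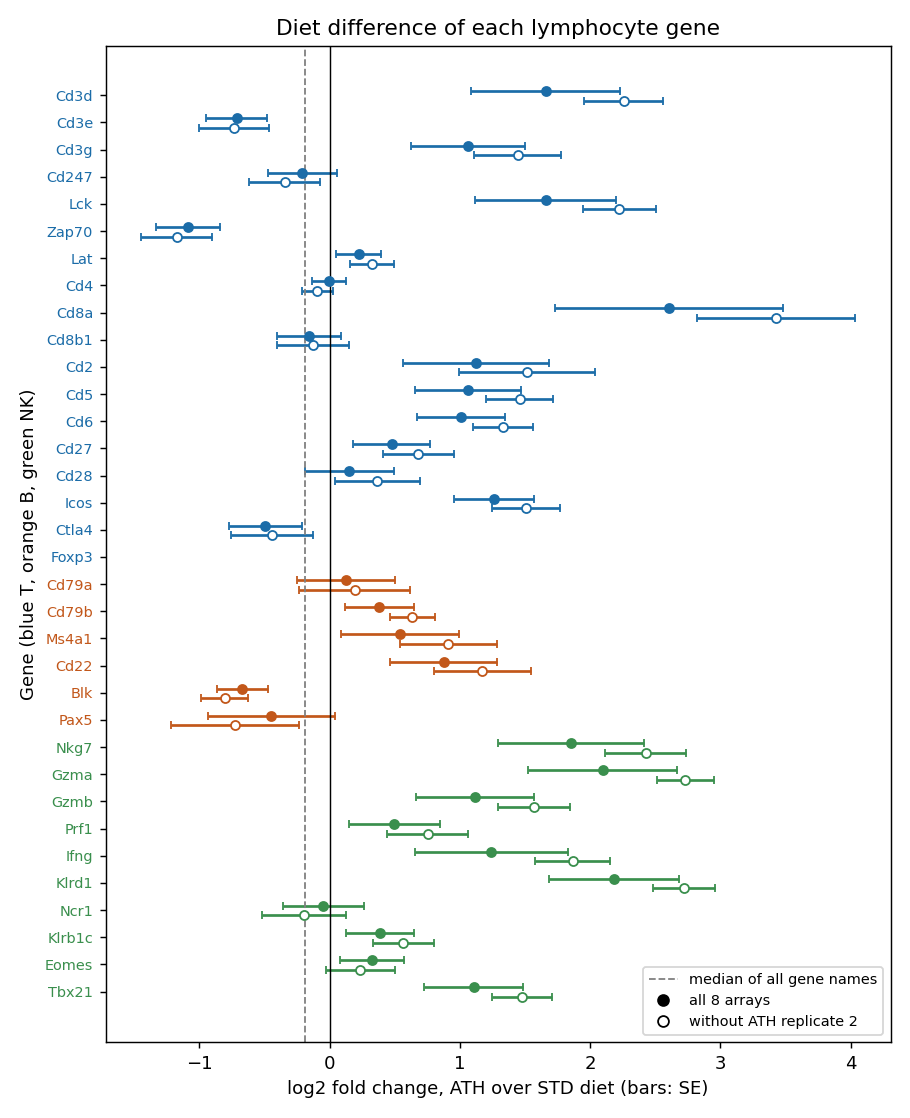
The log2 fold change of each gene (ATH over STD diet, horizontal axis) is plotted with its standard error from all 8 arrays (filled points) and without ATH replicate 2 (open points), with the median of all gene names, -0.19, as a dashed line. Cd8a, Klrd1 and Gzma lie farthest to the right and Zap70 farthest to the left, and most open points on the right lie farther out with shorter bars. Foxp3, at background on every array, has no point.

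Over the classes, the median log2 fold change was 0.39 for the 18 T genes, 0.25 for the 6 B genes and 1.11 for the 10 NK genes, beside -0.19 for all gene names. The mean was higher on the ATH diet for 12 of 18 T genes, 4 of 6 B genes and 9 of 10 NK genes, and for 30.6% of all gene names. Without ATH replicate 2 these counts were again 12, 4 and 9, and the medians were 0.52, 0.41 and 1.52. The T median was 0.74 with Cd8b1 read at its chromosome 6 probe, 0.48 without Foxp3 and 0.24 without ATH replicate 4. The B median, over 6 genes, was 0.40 without STD replicate 1, 0.11 without STD replicate 2, 0.15 without ATH replicate 3 and 0.16 without ATH replicate 4, and it did not move with Blk and Pax5 at their bounds. The 13 genes called higher without ATH replicate 2 were Cd3d, Cd3g, Lck, Cd8a, Cd5, Cd6, Icos, Nkg7, Gzma, Gzmb, Ifng, Klrd1 and Tbx21, and the 2 called lower were Zap70 and Blk. Those called higher were 7 T genes, 6 genes of the NK and cytotoxic class and no B gene. The receptors Ncr1 (adjusted p = 0.699 by limma) and Klrb1c (0.152), the factor Eomes (0.565) and Prf1 (0.15), of that same class, were not called.

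The spread between mice differed by diet. The SD over the 4 arrays was larger on the ATH diet for 14 of 18 T genes, 5 of 6 B genes and 8 of 10 NK genes, 27 of the 34 in all (79.4%), against 64.7% of all gene names. The ratio of the ATH to the STD SD had a median of 2.74 over the 34 and of 1.30 over all gene names. Cd8a had the largest ratio, with an SD of 0.21 on the STD diet and 2.04 on the ATH diet, followed by Cd6 (0.11 and 0.76) and Cd4 (0.03 and 0.20). The reverse held for Cd79a (0.82 and 0.23) and Ncr1 (0.52 and 0.46), among others.

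**Figure D4:**
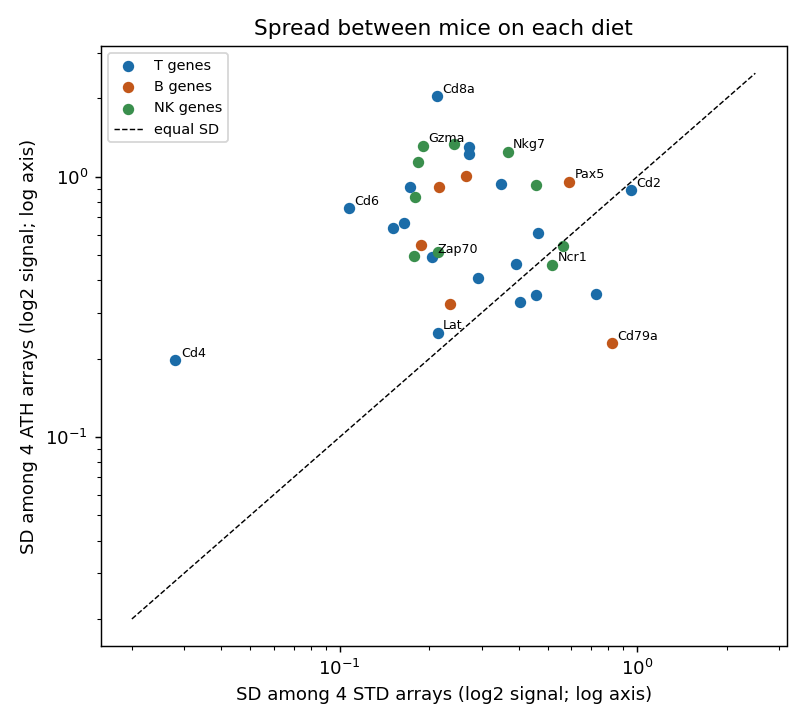
For each lymphocyte gene the SD of the log2 scaled signal among the 4 ATH arrays (vertical, log axis) is plotted against that among the 4 STD arrays (horizontal, log axis), with the dashed line marking equal SD. Of the 34 points 27 lie above the line, Cd8a highest of them, and Cd79a and Ncr1 are among those below it.

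Lists of other cell types were read on the same arrays. The median shift from the STD mean on ATH replicates 1, 2, 3 and 4 was 0.17, -0.08, 0.67 and 1.08 for T genes, 0.16, -0.17, 0.42 and 0.54 for B genes and 1.27, 0.05, 1.36 and 1.94 for NK genes. It was 1.47, 0.55, 2.51 and 2.80 for 10 all-leukocyte genes and 1.19, 0.52, 2.19 and 2.30 for 20 macrophage markers, with replicate 2 lowest in each. Hepatocyte markers were lower on this scale, with medians of -0.27, -0.15, -0.49 and -0.53 over 18 genes, and all gene names had -0.11, -0.03, -0.30 and -0.28. The 75th percentile taken off was on average 0.447 (log2) higher on the ATH arrays. The median log2 fold change of the hepatocyte markers, -0.34, was smaller in size than that, so its sign depends on the scaling.

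**Figure D5:**
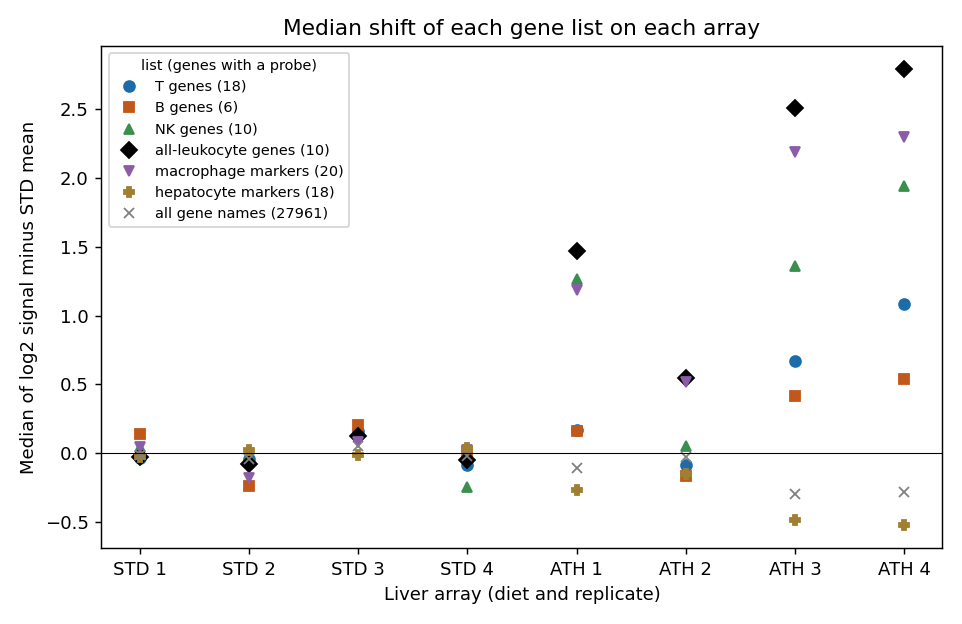
The median over the genes of a list of the log2 scaled signal minus its STD mean (vertical axis) is plotted for each array (horizontal axis). On the ATH diet the T, B, NK, all-leukocyte and macrophage lists are each lowest on replicate 2 and highest on replicate 4, and the hepatocyte markers are lowest on replicates 3 and 4.

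The macrophage markers were higher on average in 19 of 20 genes, where 30.6% of all gene names were. Their summed scaled signal (on the linear scale, in units of the array's 75th percentile) ranged from 110.4 to 129 on the STD arrays and from 208 to 861 on the ATH arrays. For the all-leukocyte genes, 10 of 10 were higher and the sum ranged from 14.1 to 15.2 and from 18.7 to 85.1. For the hepatocyte markers, 15 of 18 were lower, where 19413 of all 27961 gene names were. Their sum ranged from 7261 to 8017 and from 5190 to 6896, with Alb, saturated on 2 of the ATH arrays, in that sum. Ptprc (CD45, on all leukocytes), Cd68 and Adgre1 (macrophages) were well above background on all 8 arrays, with log2 fold changes of 2.07 (SE 0.49), 1.92 (SE 0.50) and 1.54 (SE 0.47). Their ATH values all lay above their STD values, as did those of 5.27% of all gene names. None of them was called (adjusted p = 0.0566, 0.0659 and 0.0953 by limma). Of the macrophage markers 6 were called higher, among them Trem2 (log2 fold change 3.16, SE 0.51), Lgals3 (2.77, SE 0.44) and Gpnmb, which was on no STD array well above background and at least 32.4-fold higher (adjusted p = 0.0124), and of the hepatocyte markers 1, Tat, was called lower (-1.05, SE 0.15). Of all gene names 1.35% were called higher and 2.29% lower. The part of these cell types in the shifts of the lymphocyte genes was not tested.

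The markers of dendritic cells were higher on average in 9 of 10 genes, with sums from 1.84 to 1.99 on the STD arrays and from 2.79 to 11.1 on the ATH arrays, and Itgax was called higher (log2 fold change 3.91, SE 0.83) and Xcr1 lower (-0.67, SE 0.14). Neutrophil markers were higher in 8 of 9, with sums from 1.71 to 3.45 and from 3.30 to 14.6. Red cell markers were lower in 6 of 7, with sums from 199 to 255 and from 112 to 316, the last on ATH replicate 2. Of all gene names, 30.6% were higher on average and 19413 of 27961 were lower.

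Other lymphocyte genes outside the 34 were also read. Among 29 other T cell genes, 20 were higher on average and 9 lower (median log2 fold change 0.95), and 1 was called higher, Havcr2, which encodes the inhibitory receptor TIM-3 that myeloid cells also carry (log2 fold change 2.43, SE 0.35, adjusted p = 0.0178). Of all gene names 30.6% were higher on average and 1.35% were called higher.

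Among 25 other B and plasma cell genes the median was 0.41, with 2 called higher, Prdm1 (1.76, SE 0.32), a plasma cell factor, and Cd72 (1.22, SE 0.27), a B cell coreceptor. The 2 called lower were Ebf1, a B lineage factor that was not well above background on any array and so has no fold, and Sdc1 (-0.74, SE 0.17), a proteoglycan that hepatocytes also make. Among 23 other NK and cytotoxic genes the median was 1.02, with 1 called, the NK receptor Klrb1b (adjusted p = 0.0418). It was well above background on no STD array and 3 ATH arrays. The bound of about 1.77-fold higher takes in ATH replicate 2, where it was not well above background. Klrk1, which encodes NKG2D, differed by 1.49 (SE 0.51, adjusted p = 0.12). Over all gene names 1.35% were called higher and 2.29% lower. Without ATH replicate 2, 13 of the other T cell genes and 6 of the other B and plasma cell genes were called higher. Of the other NK and cytotoxic genes 12 were, and of all gene names 4.19%. Called lower were 1, 2 and 0 genes of these lists, in that order, and 4.32% of all gene names. The array left out had the lowest ATH median in each of these lists too, so these calls hold for the remaining mice only.

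The genes Cd8a, Gzma, Nkg7 and Cd3d, among those with the largest log2 fold changes, are shown with the 250 bases before their start site, because they have the same order of ATH arrays, lowest on replicate 2 and highest on replicate 4. The sequences are those of RefSeq on GRCm38.p6, written 5′ to 3′ on the strand of the gene. Capitals mark every match, on either strand, to 3 short motifs of lymphocyte transcription factors, the RUNX core TGTGGT, an ETS site AGGAAG and the T-box core GGTGTG, and matches may overlap.

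Cd8a, chromosome 6, 71373177 to 71373426, plus strand: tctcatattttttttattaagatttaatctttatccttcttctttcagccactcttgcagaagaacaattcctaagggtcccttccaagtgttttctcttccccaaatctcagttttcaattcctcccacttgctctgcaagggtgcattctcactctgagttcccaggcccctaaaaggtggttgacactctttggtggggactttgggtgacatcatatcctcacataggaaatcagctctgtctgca
Gzma, chromosome 13, 113100982 to 113101231, minus strand: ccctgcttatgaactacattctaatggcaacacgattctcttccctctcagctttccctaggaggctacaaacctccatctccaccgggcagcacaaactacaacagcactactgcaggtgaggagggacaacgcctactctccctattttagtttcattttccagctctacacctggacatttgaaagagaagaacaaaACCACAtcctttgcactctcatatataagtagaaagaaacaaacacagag
Nkg7, chromosome 7, 43436888 to 43437137, plus strand: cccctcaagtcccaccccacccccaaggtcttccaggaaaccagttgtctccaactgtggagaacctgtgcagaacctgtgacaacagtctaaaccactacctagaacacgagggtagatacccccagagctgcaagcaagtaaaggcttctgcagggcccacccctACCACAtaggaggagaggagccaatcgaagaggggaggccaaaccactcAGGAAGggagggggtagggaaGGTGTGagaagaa
Cd3d, chromosome 9, 44981536 to 44981785, plus strand: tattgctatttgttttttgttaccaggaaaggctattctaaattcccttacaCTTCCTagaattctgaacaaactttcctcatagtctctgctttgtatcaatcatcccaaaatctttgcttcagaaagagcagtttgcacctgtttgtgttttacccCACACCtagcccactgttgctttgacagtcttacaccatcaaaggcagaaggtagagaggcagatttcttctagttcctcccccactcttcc

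The promoter table held 29 promoters of 24 of the 34 genes. The RUNX core was found in 9 of the 29 (31.0%) and in 14.0% of all 32851 promoters of that length, the ETS site in 16 (55.2%) and in 29.5%, and the T-box core in 3 (10.3%) and in 16.3%. Gzma held a RUNX core, Nkg7 all 3 motifs and Cd3d an ETS site and a T-box core, while none was matched in the window of Cd8a. A match is a run of letters and was not tested against binding.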

How the data were processed

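Liver RNA of 4 STD and 4 ATH mice was hybridized to 1-color Agilent arrays. The authors deposited Feature Extraction output (version 9.5.3.1), whose spot intensity values were corrected for background and spatial trend but left unscaled, and log2 values exported from GeneSpring. The deposited log2 values equalled the log2 processed signal plus constants for 100% of 31595 shared probes within 0.001. Positions are those of the files (mm7).

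Control spots and spots flagged as outliers were left out, spots of a probe were averaged, and after log2 each array's 75th percentile was taken off. No sample column of another series was met. Synonyms of a gene were folded into its current symbol. The diets were compared by limma (version 3.58.1; R 4.3.3), two-sided, over all gene names with Benjamini-Hochberg adjustment. Python 3.11.15 (numpy 2.4.6, scipy 1.17.1, pandas 2.3.3, matplotlib 3.10.9) made the summaries. In simulated data made for this comparison, with 200 of 27947 genes changed by 2 on the log2 scale, 79.5% were recovered, with 170 calls of which 11 were false. The simulation gave both diets the SD of the STD arrays. The measured ATH SD was larger, with a median ratio of 1.30 over all gene names and 2.74 over the 34. The share recovered therefore does not carry over to the lymphocyte genes.

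All 34 genes are named, with the defining markers and up to 3 called genes per direction of each companion list. The members and lists were chosen with earlier results of these data known. Results for some genes of the companion lists are not reported here. Tigit, Klra4, Zfp683, Ly6g, Serpina1a and Hbb-b2 had no probe under their name here. The replicate number is also the array's place on its slide, and same-numbered arrays deviated together (r from 0.10 to 0.23, each over 0.1 and highest with its own number), so a fit with the number as a block was run as an alternative. Alternatives also covered the background correction (normexp, offset 50), scaling, deposited values, detection, probe choice, flags, test, threshold and each array left out. P-values measure the spread between these mice, and the number of arrays limits the precision.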

Additional observations from a re-analysis of the deposited data

Results flagged for a closer look

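In 1 of 74 groups of 4 values, each gene and each class median on each diet, a single array lay far from the others relative to the whole range. Cd4 on STD replicate 3 was at -3.38 log2 scaled signal while the other STD arrays lay between -3.44 and -3.43. Chance gives about 1 such case in 20 groups. In no gene was ATH replicate 2 such a case.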

How the results depend on the processing

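The count of lymphocyte genes called higher, 0 with all arrays, was 8 with normexp background correction, 6 with no scaling, 1 with spike-in scaling, 2 with the deposited log2 values, 3 with probes detected on 3 of 4 arrays of either diet, 3 with probes detected on all 8 arrays and 2 with a variance trend in limma. The count called lower, also 0, was 8 with normexp (which called 9315 of all gene names lower, and counts Foxp3, at background on every array) and 1 with the deposited values, with either detection filter and with the variance trend. With each array left out in turn these counts ran from 0 to 13 and from 0 to 2. The replicate block gave 0 and 0, while it took all gene names from 377 higher and 641 lower to 30 and 45, and it changed no call of a lymphocyte gene. The 1% threshold and the other settings gave 0. The median of the B genes was 0.70 with no scaling, where that of all gene names was 0.25, and over all alternatives that keep every array the medians ran from 0.12 to 0.84 for T, 0.02 to 0.70 for B and 0.58 to 1.56 for NK genes, lowest with normexp and highest with no scaling. Reading Cd8b1 at its chromosome 6 probe, an alternative chosen after the data were seen, left the count at 0 and moved the T median from 0.39 to 0.74. Leaving Foxp3 out of the T median and setting Blk and Pax5 at their bounds were also chosen after the data were seen.

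Of the 33 genes with a fold, 24 kept their sign in each alternative. Normexp reversed Cd28 (-0.28), Cd79a (-0.27), Klrb1c (-0.0569) and Eomes (-0.33). No scaling reversed Cd247 (0.24), Cd4 (0.44), Cd8b1 (0.29) and Ncr1 (0.40), and spike-in scaling the same genes (0.10, 0.31, 0.15 and 0.26). Array medians and quantiles reversed Cd4 (0.0704 and 0.0938) and Ncr1 (0.0246 and 0.0637). Averaging the probes reversed Cd247 (0.43), Cd4 (0.0608), Cd8b1 (0.78) and Cd28 (-0.17). Leaving out single arrays moved Cd4 from -0.0948 to 0.0546, Cd28 from -0.10 to 0.37, Cd79a from -0.11 to 0.52, Pax5 from -0.72 to 0.0111 and Ncr1 from -0.20 to 0.20. Why the settings differ was not tested.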
